A study of Saccharomyces cerevisiae with 2 samples.

Results

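The genes described here make chitin in budding yeast, Saccharomyces cerevisiae, move its main synthase to the cell surface, or link chitin to the rest of the cell wall. They are 10 of the 6207 gene features of the arrays and were picked by systematic gene name from a list of known function, drawn up when earlier results of these data were known. They are the precursor enzyme gene GFA1 (YKL104C), the synthase genes CHS1 (YNL192W), CHS2 (YBR038W) and CHS3 (YBR023C), the transport genes CHS5 (YLR330W), CHS6 (YJL099W) and CHS7 (YHR142W), and the crosslinking family CRH1 (YGR189C), UTR2 (YEL040W) and CRR1 (YLR213C). Each is represented by 1 feature, and all 10 had a value in both comparisons.

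Chitin is a polymer of N-acetylglucosamine and a minor but stiffening part of the yeast wall. Its sugar donor, UDP-N-acetylglucosamine, is made by a short pathway whose first committed step is catalysed by Gfa1. Synthases then lay chitin down in the primary septum, in the ring at the bud neck and in the lateral wall. Transglycosylases of the Crh family join it to beta-glucan. Chitin made by Chs3 is known to accumulate when the wall is stressed and in cells exposed to mating pheromone.

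The first comparison set an msg5 deletion against wild type BY4741, both without pheromone and collected 2 h after time 0. The second set msg5 deletion cells treated with alpha factor against untreated msg5 deletion cells, both collected at 90 min; no wild type with alpha factor was analysed here. MSG5 encodes a phosphatase of mitogen-activated protein kinases, and alpha factor is the pheromone that a cells sense. Cells grew in rich medium at 24 °C, and the labels give the alpha factor concentration as 50 mM, a unit that could not be checked here. Cultures of the first comparison had grown for 2 h 30 min before time 0 and those of the second for 4 h.

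For each comparison the authors condensed 4 two-colour arrays, from 2 biological samples each labelled both ways round, into 1 log ratio per feature. There is thus no spread between replicates and no test, and a log ratio gives no level, so the presence of a transcript cannot be read from it. The deletion comparison held 5308 measured features with a median of -0.07, and the alpha factor comparison 4877 with a median of -0.05. The only repeat measure was between features of the same gene, whose median gap was 0.20 across 25 genes for the deletion, with a largest gap of 0.61. For alpha factor the median gap was 0.29 across 24 genes and the largest 0.68. Such features were matched by systematic or older name and need not share a probe, and their gap gives no spread between cultures. MSG5 had the lowest value of all features in the deletion comparison, -2.51. Alpha factor ratios are likely treated over untreated, since all 7 pheromone-induced genes looked at (AGA1, FIG1, FIG2, FUS1, KAR4, PRM6 and SST2) were above 0, and their base is less certain than that of the deletion values. Turning that sign would turn every alpha factor direction below.

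In the deletion, CHS1, GFA1 and CRH1 stood highest among the chitin genes, at 1.71-fold, 1.53-fold and 1.47-fold of wild type, while CHS2, CHS3, CHS5 and UTR2 lay slightly below 0. With alpha factor, CRH1 was highest at 1.46-fold, followed by CHS7 at 1.32-fold and CRR1 at 1.27-fold, and CHS6 was lowest at 0.741-fold. With these directions the gene farthest apart between the comparisons was CHS6, at 1.29-fold in the deletion; with the alpha factor sign turned it would be CRH1. None of the 10 genes reached 2-fold in either comparison. Of all features, 0.829% were that much higher and 0.283% that much lower in the deletion, and 0.41% and 0.369% with alpha factor.

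**Figure D1:**
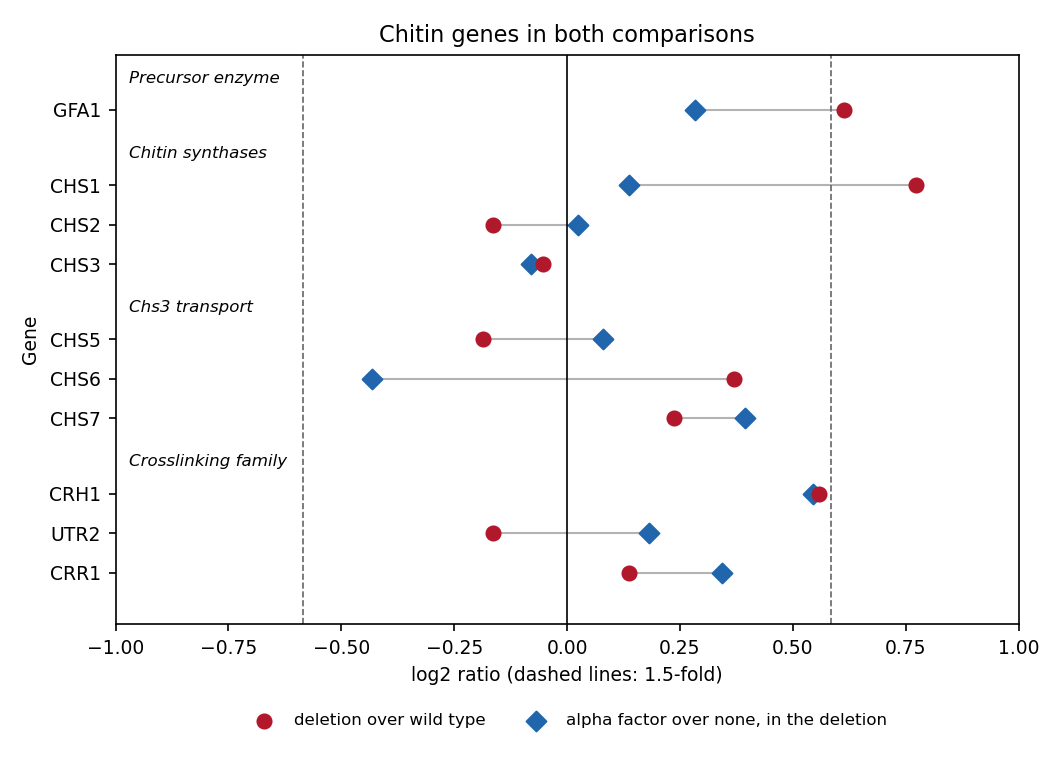
Log2 ratio of each of the 10 chitin genes, grouped by role, in the deletion over wild type (circles) and with alpha factor over none within the deletion (diamonds), 1 condensed value each, with dashed lines at 1.5-fold. CHS1 (0.77) and GFA1 (0.61) pass the upper line in the deletion, CRH1 nearly reaches it in both comparisons, and no diamond passes a line.

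Gfa1, which makes glucosamine-6-phosphate from fructose-6-phosphate and glutamine, controls entry into the chitin precursor pathway. GFA1 had a log2 ratio of 0.61 in the deletion, above 97.5% of all features, and 0.28 with alpha factor, above 91.4%. Its deletion value lay only 0.03 above the 1.5-fold line. Of the 3 genes that act after GFA1, PCM1, which encodes the phosphoacetylglucosamine mutase, had values of 0.48 in the deletion and 0.41 with alpha factor. GNA1, for the acetyltransferase, stood at -0.24 and -0.05, and QRI1, for the pyrophosphorylase that forms the sugar nucleotide, at -0.13 and -0.08. None of the 3 passed 1.5-fold in either comparison. Of all features, 2.84% were that much higher and 3.22% that much lower in the deletion, and 1.8% and 3.32% with alpha factor. A list of 3 genes would thus seldom hold one. The values above 0 in this pathway were those of its first enzyme and its mutase.

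Other glycosylation steps draw on the same sugar nucleotide. The 4 genes listed for them, ALG7, ALG13 and ALG14 of N-glycan synthesis and SPT14 of the glycolipid anchor, had a median of -0.13 in the deletion and 0.05 with alpha factor. Their values ran between -0.18 for SPT14 and 0.10 for ALG13 in the deletion, and between -0.22 for ALG7 and 0.09 for ALG14 with alpha factor. None was past 1.5-fold, and at most 3.32% of all features were past it in any direction of either comparison.

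The 3 synthase genes did not share a value. Chs1 repairs the wall of the daughter cell after separation, Chs2 builds the primary septum, and Chs3 makes most of the chitin of the cell, at the bud neck and in the lateral wall. CHS1 had the highest value of the chitin genes in the deletion, 0.77, which was rank 86 from the top of 5308 features. With alpha factor it stood at 0.14, rank 1024 of 4877. CHS2 had values of -0.16 and 0.02 in the deletion and with alpha factor, and CHS3 of -0.05 and -0.08. CHS2 and CHS3 therefore lay closer to 0 in both comparisons than features of the same gene typically lay to each other, and CHS1 lay farther than that in the deletion only.

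CHS2 can be set beside genes that act with it in the septum. The 5 measured members of that list had a median of -0.39 in the deletion, against -0.07 for all features, with 1 of 5 at least 1.5-fold lower, where 3.22% of all features were. That gene was IQG1, for the scaffold of the contractile ring, at -0.65. HOF1, a ring protein, stood at -0.54 and MYO1, the myosin of the ring, at -0.39, whereas the Chs2 activators INN1 and CYK3 stood at -0.00 and -0.02. The CHS2 value lay between these sets. With alpha factor 3 of the 6 listed genes had a value, between -0.41 for CYK3 and -0.11 for INN1. None of them passed 1.5-fold, where 1.8% of all features were that much higher and 3.32% that much lower.

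Chs3 reaches the plasma membrane through dedicated transport factors. Chs7 is needed for its exit from the endoplasmic reticulum, Chs5 is the core of exomer, the coat that carries it from the trans-Golgi network to the surface, and Chs6 is a cargo adaptor of that coat. CHS7 had values of 0.24 in the deletion and 0.40 with alpha factor, above 90.0% and 95.2% of features. CHS5 had values of -0.19 and 0.08, the lowest of the 10 genes in the deletion. CHS6 had values of 0.37 and -0.43, above 94.0% of features in the deletion and above 7.71% with alpha factor. These genes serve the same cargo, and their values spread over 0.56 in the deletion and 0.83 with alpha factor.

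Among the other genes of Chs3 transport and activation, 4 of 6 had a value in each comparison and none passed 1.5-fold. Of all features, 2.84% were that much higher and 3.22% that much lower in the deletion, and 1.8% and 3.32% with alpha factor. SKT5, the activator of Chs3, had values on the same sides of 0 as CHS6, 0.26 in the deletion and -0.17 with alpha factor. The exomer adaptor gene BCH1 stood at -0.29 and -0.16, BUD7, another adaptor gene, at 0.05 and -0.07, and PFA4, for the enzyme that palmitoylates Chs3, at 0.05 and 0.10. The value of CHS6 with alpha factor was the lowest among the measured adaptor genes, with BCH2 not measured in either comparison.

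The crosslinking family had its highest member in CRH1. Crh1 and Utr2, also called Crh2, transfer chitin chains onto beta-glucan, and Crr1 is a homologue that acts in the spore wall. CRH1 had nearly equal values, 0.56 in the deletion and 0.55 with alpha factor, ranks 163 and 108 from the top, and missed the 1.5-fold line by 0.03 and 0.04. UTR2 had values of -0.16 and 0.18. CRR1 had values of 0.14 and 0.34, above 82.3% and 93.9% of features. CRH1 thus exceeded UTR2 by 0.72 in the deletion and 0.36 with alpha factor, both larger than the median gap between features of the same gene, although the first gap alone exceeded the largest such gap.

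Chitin is also broken down and modified. The measured genes for these steps showed no value near 1.5-fold, a line that at most 3.32% of all features passed in any direction. CTS1, for the chitinase that separates mother and daughter, stood at -0.01 and -0.11, CTS2, for a putative chitinase, at 0.10 and -0.17, and CDA1, for a deacetylase of the spore wall, at -0.19 and -0.12. CDA1 was the 1 measured gene of 5 in the spore wall list, so CRR1 could be set beside no other spore wall gene there. In the glucan list, FKS1, for the main glucan synthase, had values of 0.49 and -0.19, and FKS2, for its paralogue, of -0.33 and 0.31. KRE6, of beta-glucan synthesis, stood at 0.18 and -0.39. The paralogous glucan synthase genes thus lay on opposite sides of 0 in each comparison, with gaps of 0.82 and 0.50. The first exceeded 0.61, the largest gap between features of the same gene in the deletion. The second did not exceed 0.68, the largest with alpha factor, and FKS1 lay closer to 0 there than the median such gap of 0.29. No feature was found under the systematic name of GAS1, the remaining listed gene.

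**Figure D2:**
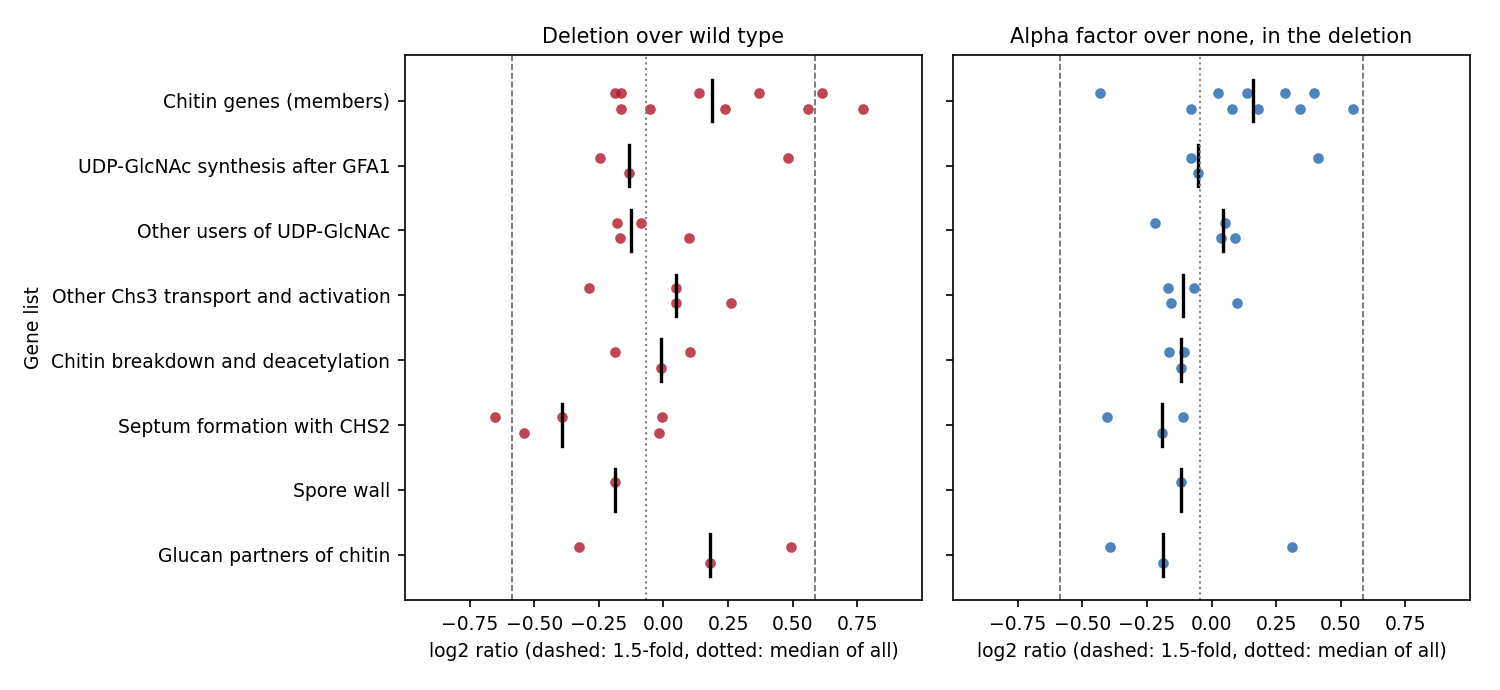
Log2 ratio of each measured gene (points) in the chitin gene set and 7 related lists, with the list median as a black bar, for the deletion over wild type (left) and alpha factor over none (right); dashed lines mark 1.5-fold and the dotted line the median of all features. The chitin genes have medians of 0.19 and 0.16. The left one is near that of the glucan list (0.18) and falls below it without CHS1 (0.14). IQG1 of the septum list, at -0.65 on the left, is the only point of the other lists past a dashed line. Of all features, 2.84% were past the upper and 3.22% past the lower line on the left, and 1.8% and 3.32% on the right.

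Counted together, 2 of 10 chitin genes were at least 1.5-fold higher in the deletion, where 2.84% of all features were, and none was at least 1.5-fold lower, where 3.22% were. Their median was 0.19, against -0.07 for all features, and 6 of 10 were above 0, where 36.7% of all features were. At a looser line of 0.32 in log2, 4 were higher and 0 lower, against 6.97% and 14.1% of all features. With alpha factor none was at least 1.5-fold higher or lower, where 1.8% and 3.32% of all features were. Their median there was 0.16, against -0.05, and 8 of 10 were above 0, against 41.6% of all features. The arrays also held 2 control rows, named Arabidopsis and 3XSSC. Arabidopsis stood at 0.19 in the deletion and 0.12 with alpha factor, and 3XSSC at -0.01 and 0.22. In each comparison the median of the chitin genes lay between these control values, so a shift of that size was also seen at a control. At the looser line 3 were higher and 1 lower, against 6.77% and 12.9%. A count of 2 among 10 genes chosen for a shared function is a description of these arrays and was not tested. CRH1, at 0.56, was the first gene below the 1.5-fold line in the deletion, and after the median of all features was set to 0 it passed that line in both comparisons, at 0.63 and 0.59.

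**Figure D3:**
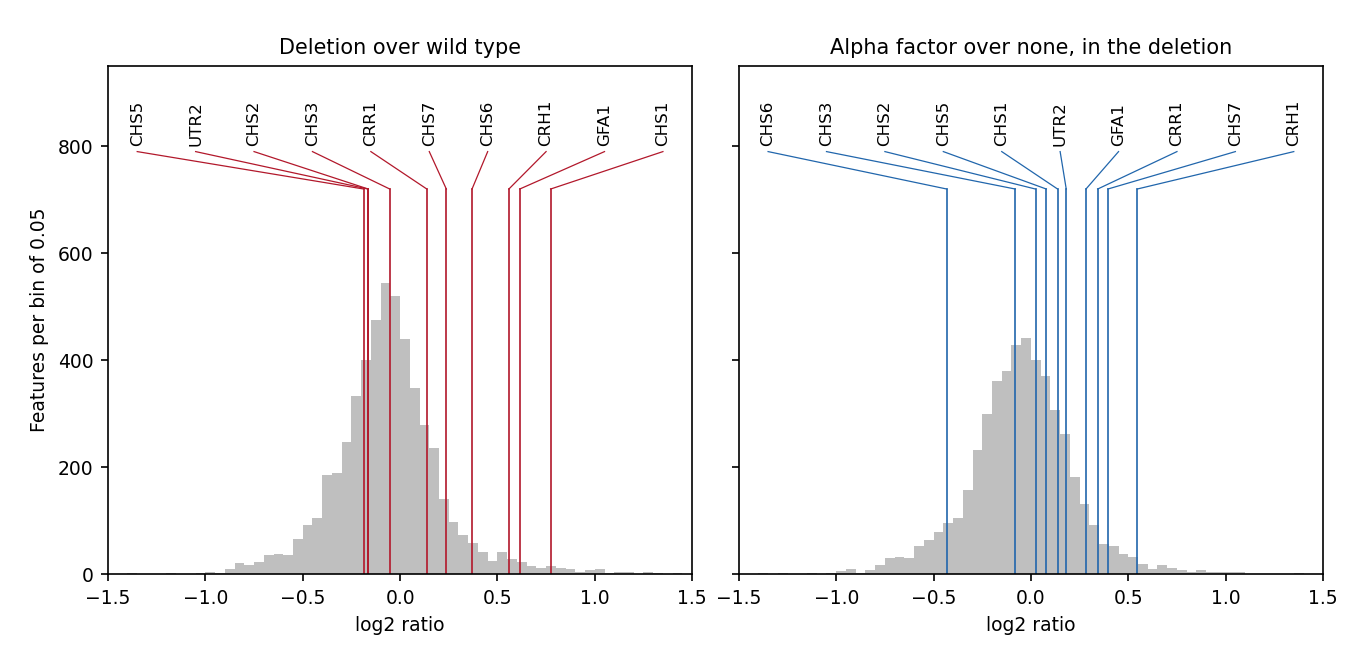
Distribution of all features (grey bars, features per bin of 0.05 in log2 ratio) with the position of each chitin gene as a labelled line, for the deletion over wild type (left) and alpha factor over none (right); the axes end at 1.5 in either direction, which leaves out 16 and 12 features. The highest lines, CHS1 on the left and CRH1 on the right, lie in the upper tail, and CHS2, CHS3 and CHS5 lie in the body of both distributions.

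In the order of the deletion values, CHS1 was followed by GFA1, CRH1, CHS6, CHS7, CRR1, CHS3, CHS2, UTR2 and CHS5. No gap between neighbours in that order exceeded 0.20, the median gap between features of the same gene. The widest were 0.19, between CRH1 and CHS6 and between CRR1 and CHS3. With alpha factor the order was CRH1, CHS7, CRR1, GFA1, UTR2, CHS1, CHS5, CHS2, CHS3 and CHS6. There the gap of 0.35 between CHS3 and CHS6 was the only one above the median repeat gap of 0.29. The order within each comparison is therefore loose between neighbours, and the ends stand farther apart, by 0.96 in the deletion and 0.98 with alpha factor.

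Set side by side, the comparisons gave different leading genes. The difference, deletion value minus alpha factor value, was 0.80 for CHS6, 0.64 for CHS1 and 0.33 for GFA1. CHS6 and CHS1 were thus 2 of 10 genes with a difference of at least 1.5-fold upward, where 5.54% of the 4618 features with both values were, and none lay as far downward, where 4.35% did. CRH1 (0.01) and CHS3 (0.03) had almost the same value in both comparisons, near 1.5-fold for CRH1 and near 0 for CHS3, given the likely direction of the alpha factor values. UTR2 (-0.35), CHS5 (-0.27), CRR1 (-0.21), CHS2 (-0.19) and CHS7 (-0.16) had the larger value with alpha factor. For alpha factor alone, features of the same gene had a median gap of 0.29 and a largest gap of 0.68. The differences of CHS5, CRR1, CHS2 and CHS7 were smaller than that median, and those of UTR2 and GFA1 lay little above it. Only CHS6 exceeded the largest gap, and a difference carries the gaps of both columns. The median difference was -0.07, against -0.01 for all features, with 5 genes above 0 and 5 below. With the alpha factor sign turned, CRH1 would have the largest difference, 1.10, followed by CHS1 (0.91), GFA1 (0.90) and CHS7 (0.63), 4 genes past 1.5-fold upward, where 5.13% of all features would be, and CHS6 would stand at -0.06. These differences set cultures with other growth and collection times side by side, rest on base 2 in both columns, and were not tested.

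**Figure D4:**
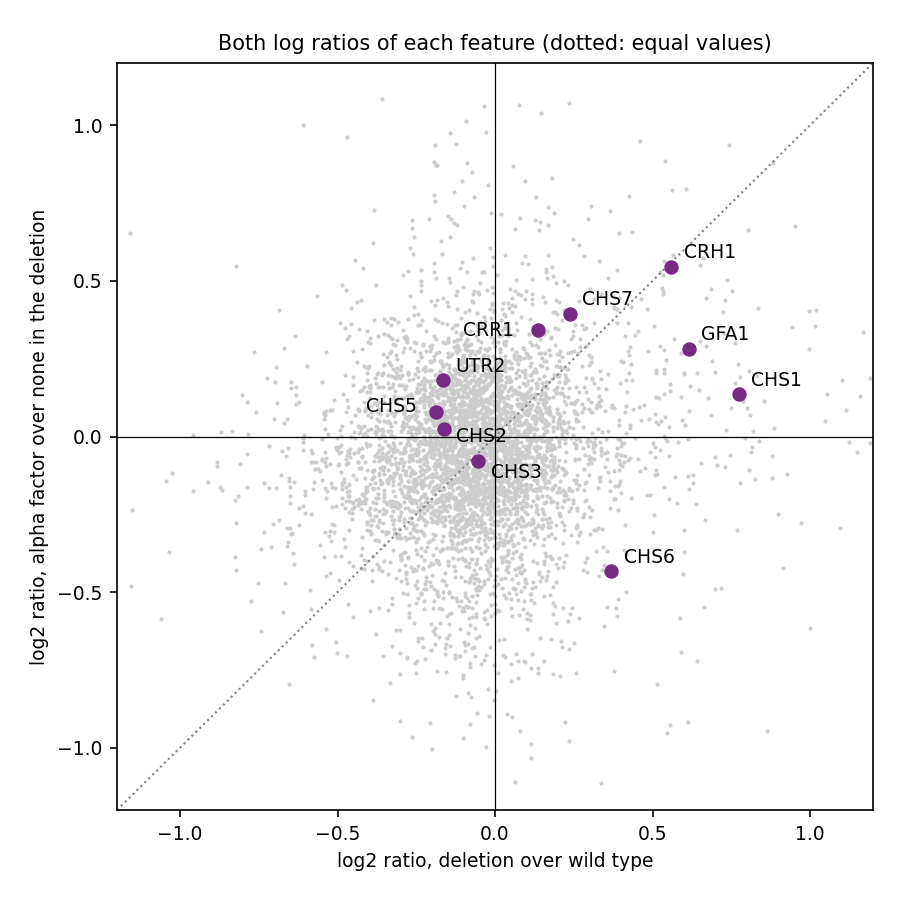
Log2 ratio of each feature in the deletion over wild type (horizontal axis) against that with alpha factor over none in the deletion (vertical axis), for 4618 features (grey) and the 10 chitin genes (labelled), with equal values on the dotted line; the axes end at 1.2 in either direction, which leaves out 44 features. CRH1 lies near the dotted line at 0.56 and 0.55, CHS1 to its right at 0.77 and 0.14, and CHS6 below the horizontal zero line at 0.37 and -0.43.

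Over both log ratios, the named genes most like CHS1 among 4095 were AIM17 (0.77 and 0.14, Euclidean distance 0.0047), BUD5 (0.79 and 0.11, distance 0.028) and RTC3 (0.75 and 0.09, distance 0.050). Those most like CRH1 were SDH4 (0.54 and 0.56, distance 0.028), TMC1 (0.53 and 0.52, distance 0.037) and KIN82 (0.57 and 0.58, distance 0.037). Likeness over 2 values is a weak description.

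The genes beside each chitin gene on its chromosome show whether a value was shared locally. Of 20 such neighbours, 17 had a value in the deletion comparison, with a median of -0.03. None of them was past 1.5-fold upward, where 2.84% of all features were, and 2 were past it downward, where 3.22% were. Those were SEG2, beside GFA1, at -0.76, and SAP185, beside CHS6, at -0.64. CHS1, the highest chitin gene, had neighbours at -0.39 (YNL193W) and -0.15 (DUG3), and the measured neighbour of CRH1, HIP1, stood at -0.01. The high values of CHS1, GFA1 and CRH1 were thus not seen at their measured neighbours. With alpha factor 12 neighbours had a value, with a median of -0.04. None was past 1.5-fold higher or lower, where 1.8% and 3.32% of all features were. RPL42B, a ribosomal protein gene beside CHS7, stood at 0.43, and DSE2, of daughter cell separation, on the other side of it, at 0.23, against 0.40 for CHS7. SAP185 stood at -0.31 with alpha factor, on the same side of 0 as CHS6. Whether features can pick up RNA of an adjoining gene or of a related chitin gene was not tested.

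**Figure D5:**
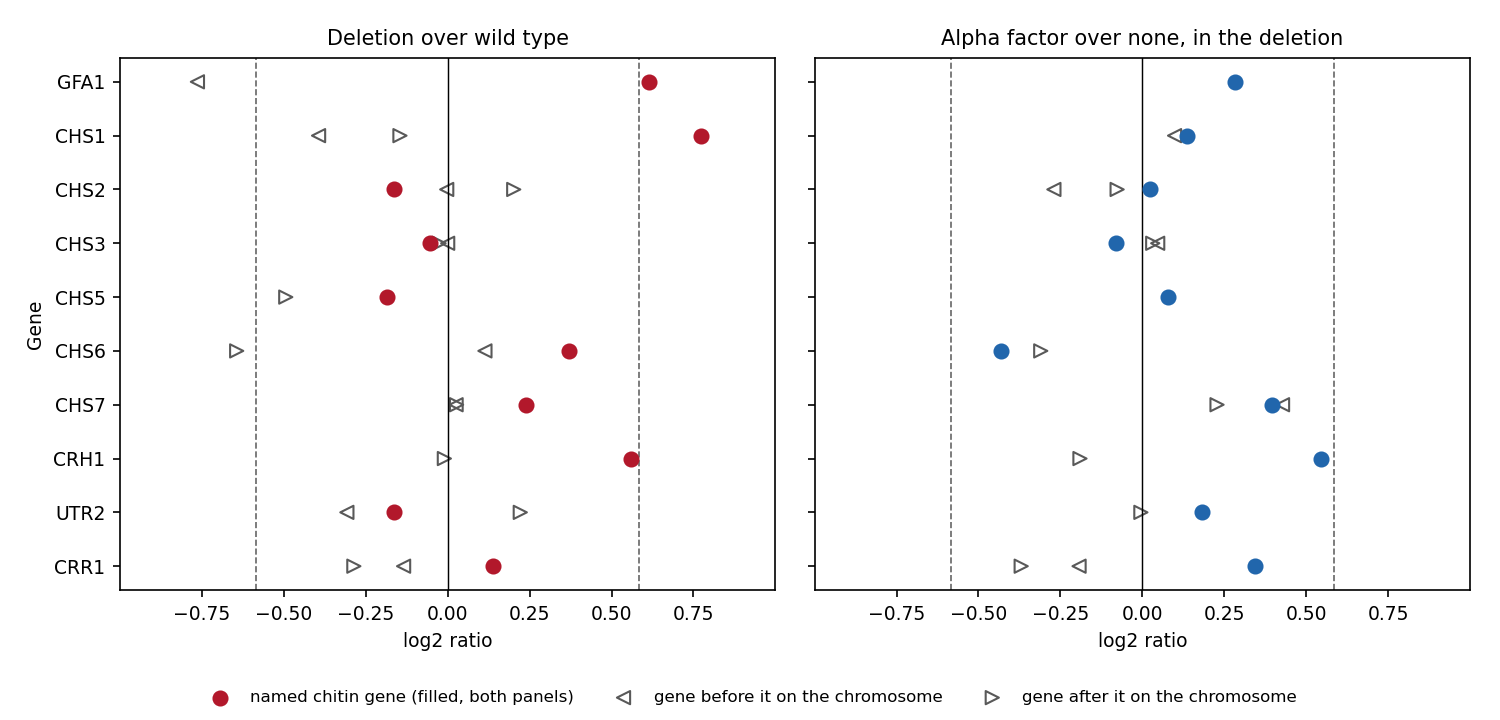
Log2 ratio of each chitin gene (filled circles) and of the genes immediately before and after it on the chromosome (open triangles, where measured; filled symbols are red on the left and blue on the right), for the deletion over wild type (left) and alpha factor over none (right), with dashed lines at 1.5-fold. CHS1, GFA1 and CRH1 stand right of all their measured neighbours in the left panel, where GFA1 has only SEG2 and CRH1 only HIP1. In the right panel CRH1 stands right of HIP1, and CHS1, at 0.14, is close to its only measured neighbour, YNL193W, at 0.10. GFA1 has no measured neighbour on the right, and CHS7 lies among its neighbours there.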

How the data were processed

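GenePix Pro 5.0 was used for image analysis, per the labels. The authors deposited log ratios, 1 per feature and comparison, condensed from 4 arrays. The sources used here do not give the normalization, filters, genome build or base of the alpha factor values. In the deletion comparison 100% of the deposited values equalled the base 2 logarithm of some ratio with steps of 0.001 (tolerance 5.5e-05; chance 7.52%), and base 2 was assumed for alpha factor. Of 6207 gene features, 5654 matched an R64 locus tag and 57 more an older name. Values were used as deposited, and a feature was counted at 1.5-fold (0.58 in log2). No test was possible, and precision is limited by the few arrays. Named genes were all 10 chitin genes, MSG5, list genes past 1.5-fold or otherwise the highest and lowest (remaining list genes were added after their values were seen), neighbours past 1.5-fold (others likewise added), and the 3 genes nearest to the farthest chitin gene. Of a-cell genes, MFA1 (1.03 in the deletion and 1.34 with alpha factor), BAR1 (0.65 and 0.55), STE2 (0.11 and 0.25), STE6 (0.10 and -0.17) and MFA2 (-0.10 and 0.74) were measured. The members and lists were chosen with earlier results of these data known. Calculations used Python 3.11.15 with pandas 2.3.3 and were tested on simulated data.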

Additional observations from a re-analysis of the deposited data

How the results depend on the processing

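No paired analysis was possible because each comparison was deposited as 1 condensed value per feature. The count of chitin genes higher in the deletion was 0 at 2-fold and 4 at a looser line of 0.32 in log2, against 2 at 1.5-fold. With alpha factor 3 were higher and 1 lower at the looser line, against 0 and 0. With alpha factor 1 gene, CRH1, passed 1.5-fold upward after centring (0.59) and after adjustment for gene length in 10 groups (0.68). It also did so after subtracting a running median of features in the order of their names (0.59). In the deletion 3 genes were past 1.5-fold upward after centring and after length adjustment, with CRH1 at 0.63 and 0.62. The running median left 2 there. Length went with the alpha factor values (Spearman's rho -0.22 over 4622 features). Read as natural logarithms, the alpha factor values gave 1 higher gene (CRH1, 0.79) and 1 lower (CHS6, -0.62), and as base 10 logarithms 5 higher, 1 lower and a median of 0.53. With the alpha factor sign turned, their median was -0.16, the median difference 0.25 and the difference of CHS6 -0.062, and 4 genes, not 2, had a difference past 1.5-fold upward. That count was 1 with natural logarithms and 1 with base 10, where 4 lay past it downward and the median difference was -0.39. Reading the values in these bases enlarges the alpha factor ratios of all features alike. Shares of all features past 1.5-fold were not computed under those readings, centring or the adjustments, so the counts given for them have no background. Under centring, both adjustments, the mean and leaving out the farthest gene, the medians of each comparison moved by less than the median gap between features of the same gene. The median difference, -0.07, became 0.06 as a mean. No intensities were used, so signal over background is unknown here.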
